A study of Ostrinia furnacalis with 9 samples.

Results

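The regions described here are 677 stretches of the genome of the Asian corn borer moth, Ostrinia furnacalis, at which the repressive histone mark H3K27me3 was called in heads of diapause larvae and not in heads of non-diapause larvae, and at which H3K9me3 was called at no stage. They were found by merging all peaks of 6 deposited lists that shared at least 1 bp into places, with sequences whose names start with NC_ left out, and by keeping places with a diapause H3K27me3 peak, no non-diapause H3K27me3 peak and no H3K9me3 peak. They were thus chosen by whether the authors listed a peak, and "gained places", as they are called below, states only which lists had a call. They are 677 of 10958 places in all, and 677 of 2343 places that carried H3K27me3 peaks alone. A total of 228 of them also had an H3K27me3 peak at pre-diapause, and 449 had none.

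The study profiled H3K9me3 and H3K27me3 by ChIP-seq, which sequences DNA bound by modified histones, in larval heads at 3 stages, with 1 sample for each mark and stage and 3 inputs. The short sample description of diapause H3K27me3, whose list defines every gained place, ends in 2 and those of the other immunoprecipitated samples in 1; what the digit means is not stated, so a difference in replicate or batch cannot be told apart from stage. The insects were raised from larvae collected in a maize field, and the stock lived at 27 °C on long days (16 h light, 8 h dark). Pre-diapause larvae had been moved at the moult to the fourth instar to 20 °C and short days (12 h light, 12 h dark), where they stayed for 20 days. Diapause larvae had spent 30 days or more under the same regime. The labels describe no regime of their own for the non-diapause stage, so temperature, day length, age and state cannot be told apart between it and the others. The number of heads per library is not stated, and peak lists hold nothing against which the labelled tissue could be checked.

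H3K27me3 is written by Polycomb repressive complex PRC2, whose catalytic subunit in Drosophila is E(z), and it is read by the Polycomb protein of PRC1. In insects it is best known from silent developmental genes such as the Hox genes, where it usually spreads over broad domains, and it can be placed or removed as cells change state. H3K9me3, bound by HP1, is known from constitutive heterochromatin and silenced repeats. Diapause is a hormonally controlled arrest of development that lets larvae survive winter. The question the places bear on is at which sites Polycomb-type marking was called only after larvae had entered the diapause regime, and whether it was already called at pre-diapause.

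Each list was deposited with the authors' fold enrichment, the signal in a peak divided by its background, and with the −log10 q of the peak. Both belong to the list they come from, and a fold of 3 in one list need not equal a fold of 3 in another. Outside the NC_ sequence, H3K27me3 had 3755 non-diapause, 6539 pre-diapause and 3812 diapause peaks. Their lowest −log10 q lay between 2.04 and 2.06, and weaker sites are in none of them. Read totals are not part of peak lists, so the depth is unknown and a place without a call is not shown to lack the mark. Each mark and stage has 1 list and hence no replicate error, and stages were not tested against each other. Intervals in parentheses are exact 95% intervals, Clopper-Pearson for shares and from binomial order statistics for medians. They cover counting error only and treat neighbouring places as independent.

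Places gained by diapause outnumbered places lost by it where H3K27me3 stood alone. Among the H3K27me3-only places, 677 had a diapause and no non-diapause peak, and 277 had a non-diapause and no diapause peak. Over all 10958 places the same calls were made in 1466 (13.4%) and 1395 (12.7%), shares near to each other, and since the choice of places used this contrast, nothing is read from the gained count itself. In places that also had an H3K9me3 peak at some stage the order was the other way round, with 789 H3K27me3 gains and 1118 losses. The excess of gains was not particular to H3K27me3, because places with H3K9me3 peaks alone had 991 gains of that mark and 388 losses. The H3K9me3 lists were of unequal length, 4483 peaks at non-diapause and 3504 at diapause, and they decide which places count as free of H3K9me3. With H3K9me3 judged by its pre-diapause list alone, there were 898 gained and 411 lost places.

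**Figure D1:**
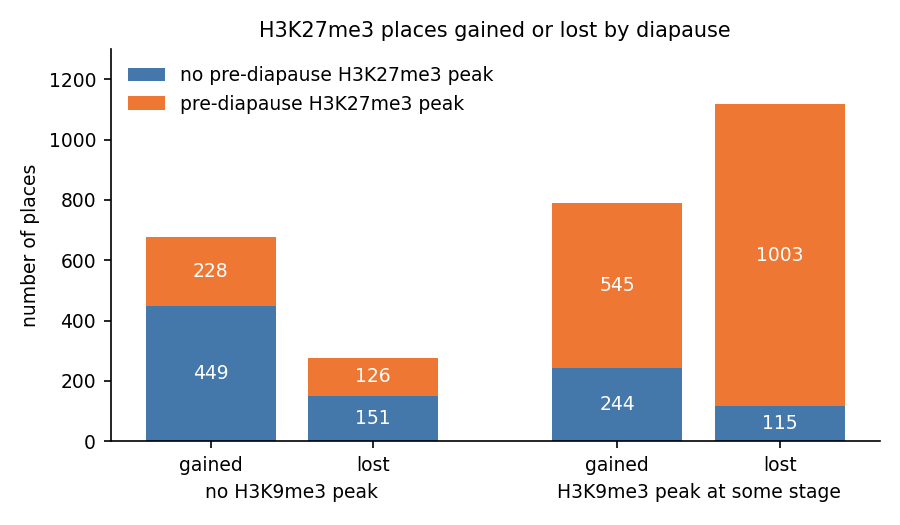
Number of places (vertical axis) at which an H3K27me3 peak was called at diapause and not non-diapause (gained) or the reverse (lost), for places with no H3K9me3 peak at any stage (left pair) and with one (right pair). Colours split each bar by the presence of a pre-diapause H3K27me3 peak: most gained places without H3K9me3 had none (449 of 677), and most places in the right pair had one.

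Most gained places were first called at diapause. A pre-diapause H3K27me3 peak was present in 228 of the 677, or 33.7% (30.1–37.4), while 6473 of all 10958 places (59.1%) had one. All places include 3435 with H3K9me3 peaks alone and others called by a pre-diapause H3K27me3 peak alone, so the sets are unlike. Gained H3K27me3 in places with H3K9me3 had a pre-diapause peak in 545 of 789, or 69.1% (65.7–72.3), an interval that did not overlap that of the 677. Such places can also be joined through an H3K9me3 peak, so their pre-diapause and diapause H3K27me3 peaks need not share a base. The share in H3K27me3-only lost places was 126 of 277, or 45.5% (39.5–51.6), and in H3K9me3-only gained places, for H3K9me3 peaks, 486 of 991, or 49.0% (45.9–52.2). Read from the other side, of the 1350 H3K27me3-only places called at pre-diapause and not at non-diapause, 16.9% (14.9–19.0) were called again at diapause. In places with H3K9me3 that share was 30.4% (28.3–32.6). The share with a pre-diapause peak moved with how the lists were cut. When every list was shortened to its 3504 strongest peaks, 730 places were gained and 9.18% (7.18–11.5) of them had a pre-diapause peak. With every list held to a −log10 q of at least 3, the share was 40.2% (36.0–44.6) of 527 gained places. Both cuts also changed which places were gained, so the part played by the pre-diapause list alone was not tested.

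Gained places, like lost ones, were mostly weak calls of the list that defined them. Places called at all 3 stages had a median diapause fold of 2.95 (2.88–3.03). Gained places with a pre-diapause peak had 2.85 (2.78–2.92), and gained places without one had 2.73 (2.69–2.76). The median −log10 q followed the same order, with 4.01 (3.75–4.38), 3.72 (3.48–3.95) and 3.09 (2.96–3.18), against 5.38 over the whole diapause list. A −log10 q of at least 5 was reached by 66 of the 449 gained places without a pre-diapause peak, or 14.7% (11.6–18.3), and by 55 of the 228 with one, or 24.1% (18.7–30.2). In total 121 gained places, or 17.9% (15.1–21.0), reached it, so a minority was well clear of the authors' threshold. Weak calls were not particular to gains. Lost places had a median non-diapause −log10 q of 3.33 (3.10–3.73), against 6.40 over the non-diapause list. Among them 64 of 277, or 23.1% (18.3–28.5), reached 5. With every list held to a −log10 q of at least 3, the median folds with and without a pre-diapause peak were 2.95 (2.86–3.01) and 2.94 (2.90–2.98), and the difference in fold between them was no longer seen. The median −log10 q was then 4.10 (3.93–4.40) and 3.83 (3.72–4.01), with overlapping intervals. With lists of equal length the median folds were 3.26 (3.08–3.54) and 2.86 (2.83–2.88), so the difference in fold varied with the cut.

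Stronger diapause peaks more often had a pre-diapause partner. The 944 diapause places with H3K27me3 alone were ranked by diapause −log10 q and split into 5 parts of about 20% each. In the weakest part, with −log10 q from 2.13 to 2.68, a pre-diapause peak was present at 16.1% (10.8–22.8) of the gained places. In the strongest part, from 5.17 upwards, it was present at 45.6% (36.3–55.2). The share of diapause places that were gained was 85.2% (79.3–89.9) in the weakest part and 60.3% (53.0–67.3) in the strongest, so places without a non-diapause peak were in the majority in the strongest part too.

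**Figure D2:**
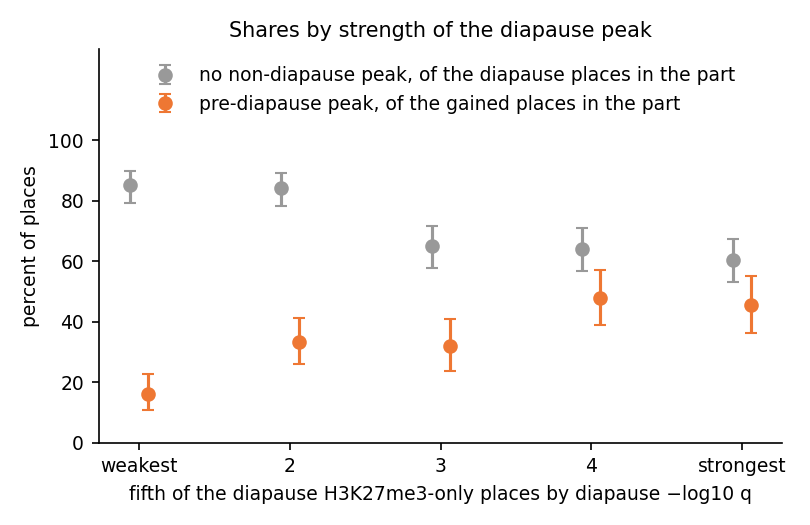
Percent of places (vertical axis) in 5 parts of the diapause H3K27me3-only places ranked by diapause −log10 q (horizontal axis), with exact 95% intervals as bars. Grey points are the share without a non-diapause peak, from 85.2% in the weakest to 60.3% in the strongest part, and orange points are the share of those gained places with a pre-diapause peak, from 16.1% to 45.6%.

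The strongest gained place without a pre-diapause peak lay near the start of a sequence with no other peak. At NW_021133079.1 384–761 the diapause H3K27me3 peak had a fold of 5.96 and a −log10 q of 17.6, while the other 5 lists had no call on that sequence. Its fold was higher than that of 98.0% of the diapause list. The next, NW_021132285.1 221534–221962, had a fold of 5.43 and a −log10 q of 16.5. A place with both marks lay 4295 bp away, and the nearest non-diapause H3K27me3 peak 4406 bp away. These were the only gained places without a pre-diapause peak whose fold passed 5.

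After them the folds of this group formed a close series. NW_021137693.1 292281–292582 had a fold of 4.45, NW_021137607.1 476820–477149 had 4.42 and NW_021137919.1 1217613–1217938 had 4.38. NW_021132278.1 384775–385141 had a fold of 4.37, NW_021132423.1 359–663 had 4.32 and NW_021130874.1 413530–413852 had 4.31. NW_021136930.1 1170342–1170684 and NW_021131139.1 72735–73426 completed the 10 highest, with folds of 4.24 and 4.19. Of these 10 places, the last was 692 bp wide and the others between 302 and 429 bp. Like NW_021133079.1, NW_021132423.1 had no peak of either mark elsewhere on its sequence. NW_021137693.1 and NW_021132278.1 had their nearest H3K9me3 peak 123904 and 122969 bp away, and another gained place lay 27064 bp from the former.

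Gained places with a pre-diapause peak reached similar folds at diapause. The highest was NW_021131363.1 17111–17534, with a diapause fold of 5.31 and a −log10 q of 14.3, and a pre-diapause fold of 4.87 with a −log10 q of 13.96. NW_021131019.1 638455–638786 had folds of 3.92 at pre-diapause and 4.73 at diapause. At NW_021137823.1 236872–237206 they were 4.67 and 4.40. All 3 places thus had strong calls in both lists and none at non-diapause.

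The other places among the 10 highest had diapause folds from 3.84 to 4.18. NW_021130935.1 199169–199508 had 3.27 at pre-diapause and 4.18 at diapause, and NW_021130358.1 806–1198 had 3.60 and 4.06, with no other place on its sequence. NW_021137325.1 516057–516385 had 3.87 and 3.96, and NW_021131349.1 753353–753974 had 3.03 and 3.95. NW_021133984.1 466277–466602 had 4.44 and 3.93. NW_021130422.1 348479–348820 had 3.68 and 3.85, and NW_021133894.1 142013–142398 had 3.71 and 3.84. Ranked by the pre-diapause fold instead, the highest was NW_021130454.1 8455–9213, with 4.94 at pre-diapause and 3.41 at diapause. NW_021131363.1 came next, then NW_021137793.1 465098–465449 with 4.80 and 3.14, then NW_021137823.1 and NW_021133984.1.

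Across the 228 places with both peaks, a higher pre-diapause fold went with a higher diapause fold. Spearman's rho was 0.59 and Pearson's r 0.66, as a description over places that share their 2 libraries. In the 221 H3K27me3-only places called at all 3 stages the values were 0.46 and 0.56. Pre-diapause peaks that were called again at diapause did not have higher folds than those that were not. Their median pre-diapause fold was 2.78 (2.69–2.85), against 2.90 (2.85–2.94) in the 1122 places called at pre-diapause alone. Their median pre-diapause −log10 q was also lower, with 3.84 (3.67–4.12) against 4.40 (4.26–4.62). They were wider, with a median of 519 bp (450–621) against 365 bp (359–378), and overlap at 1 bp favours wide peaks by construction.

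**Figure D3:**
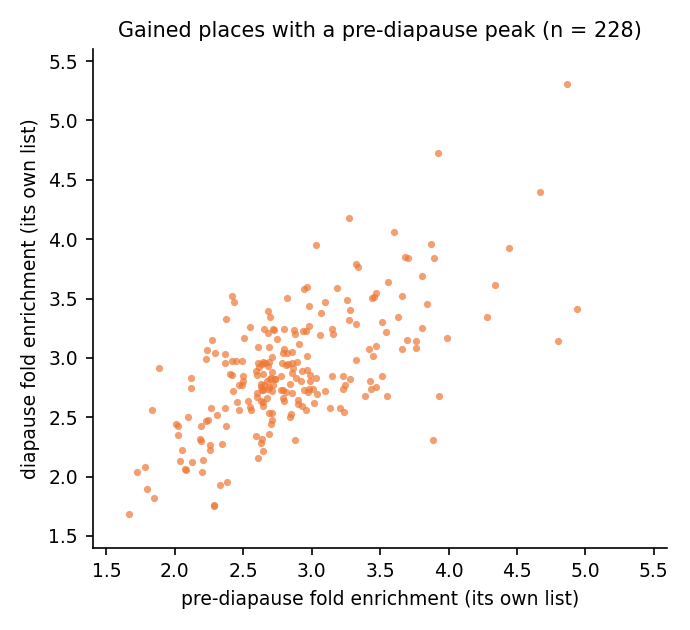
Authors' fold enrichment at pre-diapause (horizontal axis) and at diapause (vertical axis), each on the scale of its own list, for the 228 gained places with a pre-diapause peak. Points lie along a rising band (Spearman's rho 0.59), and NW_021131363.1 is the highest point, at 4.87 and 5.31.

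In most of these places both stages marked the same stretch. A single peak from each list was present in 223 of the 228 places. There the peaks shared a median of 362 bp (337–392), which was 86.5% (82.0–89.6) of the diapause peak. Midpoints lay a median of 77 bp (61.5–97.5) apart, and 17 of the 223 pairs shared under 50% of the shorter peak. The diapause peak was the wider of the pair in 116 of 223, or 52.0% (45.2–58.7), so neither stage had the wider peaks beyond counting error.

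The gained places were about as narrow as the diapause H3K27me3 list as a whole. Their diapause peaks had a median width of 492 bp (457–511), against 511 bp over that list, and ran from 299 to 2503 bp, and all 677 merged places covered 437 kb. The shortest width, 299 bp, was shared by 35 of them, 6 of which had a pre-diapause peak. Diapause peaks with a pre-diapause partner had a median of 542.5 bp (473–591) and those without one 466 bp (433–498), with overlapping intervals. The merged places were 709 bp (638–768) and 466 bp (433–498) wide, and only the former join peaks of both lists. With lists of equal length these widths were 465 bp (411–550) and 469 bp (443–506). What the difference in width comes from was not tested. Of the 61 gained places whose diapause peak passed 1000 bp, 37 had a pre-diapause peak. Peak widths by place add up all peaks of a list in it, while the 511 bp of the whole list is per peak. Summed in this way, places called at all 3 stages had diapause peaks of 1064 bp (928–1215) at the median. Non-diapause peaks of lost places had 416 bp (391–466).

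The highest folds were found in narrow peaks, while over all gained places fold and width were only weakly related. Of the 17 gained places with a diapause fold of at least 4, 16 had peaks of at most 500 bp, where the median of all gained places was 492 bp. Another gained place lay within 10 kb of 0 of the 17, and of 211 of all 677. Ordered by width and split into 4 groups, the narrowest 170 gained places had a median diapause fold of 2.93 (2.85–3.03), and the next 3 groups of 169 had 2.76 (2.71–2.82), 2.64 (2.60–2.69) and 2.78 (2.73–2.84). Over all 677 places, rho between fold and width was -0.17. The fold is an average over the peak, so width enters it. The widest gained places had ordinary folds. Among those without a pre-diapause peak, NW_021137251.1 195882–198134 spanned 2253 bp with a fold of 3.06, NW_021135154.1 1868045–1869585 spanned 1541 bp with 2.83, and NW_021131364.1 63081–64550 spanned 1470 bp with 3.21. Among those with one, NW_021133985.1 888282–891615 spanned 3334 bp with a diapause fold of 2.85 and a pre-diapause fold of 3.15. NW_021135154.1 2025222–2028311 spanned 3090 bp with 2.73 and 2.77, and NW_021131695.1 62937–65539 spanned 2603 bp with 2.97 and 2.42.

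**Figure D4:**
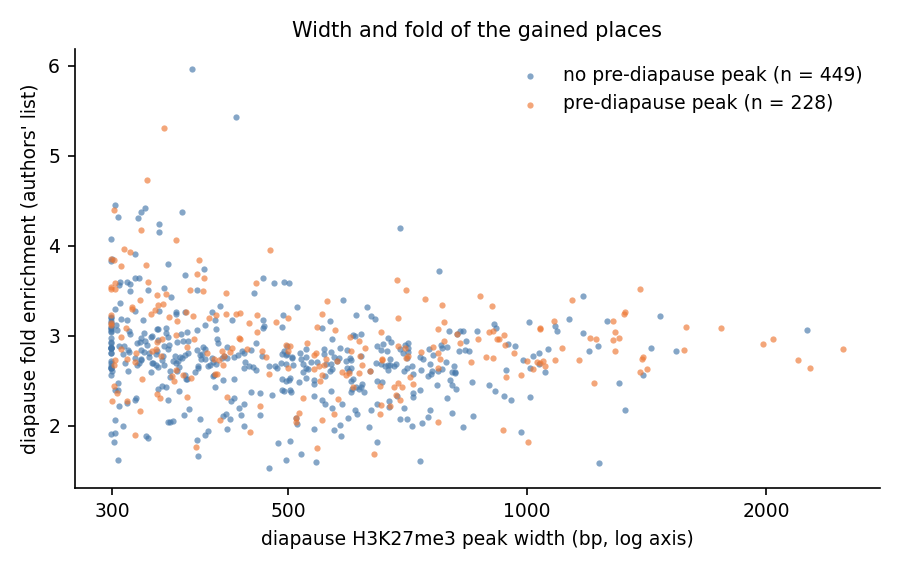
Width of the diapause H3K27me3 peak (horizontal axis, bp, log axis) against its fold enrichment in the diapause list (vertical axis) for the 677 gained places, coloured by the presence of a pre-diapause peak. Folds of 4 and above were found almost only in peaks under 500 bp, and the widest peaks had folds near 3.

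Many gained places lay near H3K27me3 that was already called at non-diapause. A non-diapause H3K27me3 peak stood within 10 kb of 263 of the 677, or 38.8% (35.2–42.6), and within 1 kb of 39, or 5.76% (4.13–7.79). The share within 10 kb was 44.7% (38.2–51.4) for gained places with a pre-diapause peak and 35.9% (31.4–40.5) for those without. For the 1122 H3K27me3-only places called at pre-diapause alone it was 24.4% (21.9–27.0). Nearness of this kind was not particular to gains, since 112 of the 277 lost places, or 40.4% (34.6–46.5), had a diapause H3K27me3 peak within 10 kb. Gained places near a non-diapause peak had wider diapause peaks, with a median of 556 bp (512–600) against 433.5 bp (410–469) elsewhere, and a similar median fold of 2.80 (2.74–2.83) against 2.75 (2.70–2.79). Another 35 gained places lay on sequences with no non-diapause H3K27me3 peak.

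Distances to H3K9me3 were compared over classes of H3K27me3-only places. The median distance to the nearest H3K9me3 peak of any stage was 23379.5 bp (21278–26509) for gained, 21111.5 bp (17897–24882) for lost and 25388 bp (21048–31087) for places called at all stages, with overlapping intervals. In places called at pre-diapause alone it was 18418 bp (16695–20243). Gained places with a pre-diapause peak had a similar 18750.5 bp (13719–23135). Those without one had 26131 bp (22111–29984), and the intervals of the 2 kinds overlapped. An H3K9me3 peak lay within 1 kb of 17 gained places, or 2.51% (1.47–3.99). At the 449 places without a pre-diapause peak, the nearest pre-diapause H3K27me3 peak was a median of 9683 bp (8213–11280) away, and 44 of them had one within 1 kb.

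Gained places, like lost ones, had other H3K27me3-only places as their nearest neighbour more often than the make-up of all places. The nearest place was another gained one for 126 of 677, or 18.6% (15.7–21.8), while gained places were 6.18% of all places. It was an H3K27me3-only place called at both non-diapause and diapause for 78, or 11.5% (9.21–14.2), a class that makes up 2.44% of all places. For 44, or 6.50% (4.76–8.63), it was a lost place, against 2.53% of all places. Places with both marks were the nearest for 29.0% (25.6–32.5) against 47.3% of all places, and places with H3K9me3 alone for 15.1% (12.5–18.0) against 31.3%. For the 277 lost places, the nearest was a gained place for 15.9% (11.8–20.7). It was one called at both non-diapause and diapause for 8.30% (5.34–12.2). Places with both marks were the nearest for 34.7% (29.1–40.6) of lost places, and places with H3K9me3 alone for 19.1% (14.7–24.3). The pattern was thus not particular to gains, and no sequence was left out of these counts. The classes differ in number and in how they crowd, so these shares describe the neighbourhood and are not a test.

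The gained places were spread over 336 of 1418 sequences, and 221 of the 336 held a single one. A scaffold of 3.25 Mb, as far as its last peak, held far more than any other. NW_021135154.1 had 81 gained places, 12.0% of all, 55 of them without and 26 with a pre-diapause peak. That is 24.9 per Mb, while the other sequences had 1.60 per Mb. The share with a pre-diapause peak was 32.1% (22.2–43.4) there and 33.9% (30.1–37.8) elsewhere. Its gained places had a median fold of 2.81 (2.75–2.84) and a highest fold of 3.38, so none of the strongest places lay there. Of the 81, 64 had a non-diapause H3K27me3 peak within 10 kb, and without this scaffold the share of gained places with one was 199 of 596, or 33.4% (29.6–37.3). The crowding was not particular to gains, since the same scaffold held 221 of all 2343 H3K27me3-only places. These included 33 of the 277 lost places, 60 of the 1122 called at pre-diapause alone and 47 of the 267 called at both non-diapause and diapause. Another 38 places there had H3K9me3. Gained places were 36.7% of the H3K27me3-only places on this scaffold and 28.1% on the other sequences. Gained, lost and lasting places were interleaved over most of the stretch, and places with H3K9me3 lay mainly on its flanks.

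**Figure D5:**
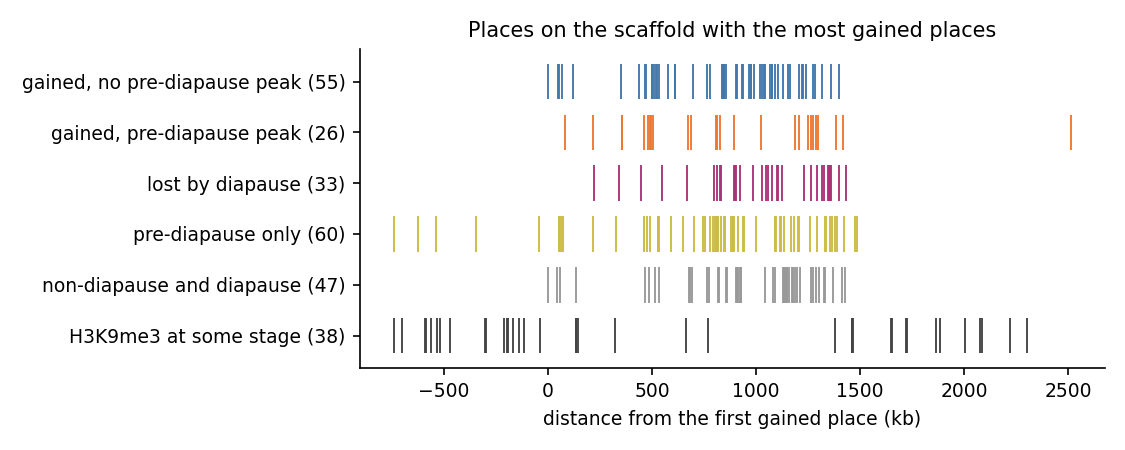
Places on scaffold NW_021135154.1 by distance of their midpoint from the start of the first gained place (horizontal axis, kb), 1 tick per place and 1 row per class, with the number of places in parentheses. All but 1 of the 81 gained places fall in a single stretch that starts at 0, together with the lost and lasting places, and most places with H3K9me3 lie outside that stretch.

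The next sequences were shorter and in part more crowded. NW_021131364.1 held 21 gained places, 11 with and 10 without a pre-diapause peak, between 36542 and 232037, which is 83.1 per Mb of its span. Their diapause folds ran from 2.56 to 3.67 with a median of 2.95, and 17 of them had a non-diapause peak within 10 kb. NW_021134911.1 held 13 between 263073 and 515723, 3 with a pre-diapause peak and folds from 2.54 to 3.01. NW_021131411.1 and NW_021132047.1 held 10 each, with 2 and 4 pre-diapause peaks. On both, 3 of the 10 had a non-diapause H3K27me3 peak within 10 kb.

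Nearly 1 in 3 gained places stood in runs, in which neighbours lay at most 10 kb apart. There were 76 runs with 211 places, 31.2% of all, and 152 of 596 places (25.5%) without NW_021135154.1. No such share is given here for other classes, so it does not show that gained places crowd more than they do. Places in runs had wider diapause peaks than single ones, with a median of 599 bp (555–655) against 428 bp (406–460), and lower −log10 q, with 3.05 (2.93–3.18) against 3.38 (3.19–3.63). The share in a run was 17.1% (11.7–23.6) in the narrowest of the 4 width groups and 49.1% (41.4–56.9) in the widest. Pre-diapause peaks were present at 37.9% (31.3–44.8) of places in runs and 31.8% (27.6–36.2) of single places, with overlapping intervals.

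The longest run lay on NW_021135154.1 at 1223744–1272613, with 10 gained places, 4 of them with a pre-diapause peak. Diapause folds in it ran from 2.14 to 3.32 and pre-diapause folds from 2.21 to 3.23. The 5 other places inside it were all H3K27me3-only, and 2 had a non-diapause peak. On NW_021131540.1, the run at 183295–215497 held 7 gained places with folds from 2.80 to 2.96, the narrowest range of the runs with 7 or more places, and 1 other place. NW_021131364.1 had a run of 7 at 36542–64550, with folds from 2.77 to 3.67, and a run of 6 at 175896–207982, with folds from 2.61 to 3.26. At the end of the marked part of NW_021132047.1, 381664–407368, 6 gained places with folds from 2.37 to 2.96 stood with 3 other H3K27me3-only places. None of those others had a non-diapause peak, so in this run H3K27me3 was called only at pre-diapause and diapause. All 9 runs of 5 or more gained places held both kinds, with and without a pre-diapause peak, as did 40 of the 76 runs in all, while the other 36 held 1 kind.

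The edges of the choice were close. The weakest gained places had a diapause −log10 q of 2.13 at NW_021130379.1 42078–42685, 2.13 at NW_021131411.1 1394689–1395407 and 2.16 at NW_021137604.1 154034–154488. Those with a pre-diapause peak began at 2.17 at NW_021130405.1 449316–450026, 2.20 at NW_021130551.1 555411–555993 and 2.21 at NW_021137947.1 288148–289694. Some gained places nearly touched a non-diapause peak. NW_021130934.1 42894–43244 lay 8 bp from one, NW_021134911.1 512706–513526 53 bp and NW_021131009.1 195391–196023 63 bp, in each case at a lost place. Just outside were places whose non-diapause and diapause peaks shared 0 bp and were joined by a pre-diapause peak. There were 5 of these among the 267 H3K27me3-only places with both peaks, such as NW_021131540.1 166135–167772, with a fold of 2.47 at non-diapause and 3.28 at diapause. The others named by the same rule were NW_021131481.1 630668–633118 with 2.87 and 2.62, and NW_021132160.1 162597–165274 with 2.79 and 2.70.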

How the data were processed

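The 6 peak lists, for H3K9me3 and H3K27me3 at 3 stages, have 9 columns and no header and were read as the broad-peak layout. The submitters' processing notes name MACS2, a peak caller, and Bowtie2, Picard, deepTools and ChIPseeker, with no version. The genome build, the use of the inputs and any pooling of libraries are not given in the sources used here. The authors' lists hold a deposited fold (ratio over background), −log10 p and −log10 q per peak. The deposited score differed from 10 times the −log10 q by at most 1 in all 29330 peaks and was not used further. No list of the 3 inputs was used here.

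Peaks were merged into places and sorted into classes by which lists had a peak there, with positions 1-based. Where a place had several peaks of a list, the highest fold and −log10 q were taken and the peak widths were added up. Merging and intervals were tested on simulated data. Sequence lengths were taken up to the farthest peak. Of the 17154 genes in the RefSeq gene table, 0 could be put on a sequence of the lists, so genes near places were not analysed here and the planned gene lists were not used.

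The members and rules were chosen with earlier results of these data known. Named places are, for gained places with and without a pre-diapause peak, the 10 of highest diapause fold, the 3 widest and the 3 weakest, the 5 of highest pre-diapause fold, the 3 on each side of the rule's edge, the 5 sequences with the most members and the longest runs. The distance, run, width and strength splits are descriptions without a test. Python 3.11.15, numpy 2.4.6, pandas 2.3.3, scipy 1.17.1 and matplotlib 3.10.9 were used.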

Additional observations from a re-analysis of the deposited data

Results flagged for a closer look

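The difference between gained and lost H3K27me3 places went in opposite directions in places without and with H3K9me3. Gained minus lost came to 400 in places with no H3K9me3 peak (677 against 277) and to -329 in places with one (789 against 1118). Each count comes from 1 list per stage, so this difference was not tested. With a −log10 q of at least 3 in all lists the differences were 312 and -372, with lists of equal length 341 and -329, and with H3K9me3 judged by its pre-diapause list alone 487 and -418.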

How the results depend on the processing

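Over 10 alternatives and 12 values, 90 of 120 stayed within 1.5 times a count or within the interval of a share or median, and 30 did not. Gained places outnumbered lost ones under all 10 alternatives, by 1.88 to 2.51 times, against 2.44 as reported. With a −log10 q of at least 3 in all lists, 40.2% of gained places had a pre-diapause peak and 76.0% of diapause places were gained. Median folds with and without a pre-diapause peak were then 2.95 and 2.94, and −log10 q 4.10 and 3.83, so the difference in fold between the kinds was not kept. With lists of equal length, shortened to 3504 peaks, the share with a pre-diapause peak was 9.18% for gained and 19.0% for lost places, and there were 1.88 gained places for each lost one. Medians were then 3.26 and 2.86 for fold, 6.07 and 3.67 for −log10 q, and 465 and 469 bp for the width of places, so those with a pre-diapause peak were no longer wider.

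Chosen after seeing the data, a −log10 q of at least 5 for the defining peak alone left 121 gained and 64 lost places, or 1.89 for each lost one. Pre-diapause peaks were then present at 45.5% of gained and 64.1% of lost places, and 60.5% of diapause places were gained. Medians with and without a pre-diapause peak were 3.47 and 3.48 for fold, 6.25 and 6.44 for −log10 q and 411 and 349 bp for width, so fold and −log10 q no longer stood higher with one. Also chosen afterwards, H3K9me3 judged by its pre-diapause list alone gave 37.5% and 51.8% with a pre-diapause peak, a width of 629 bp with one and a −log10 q of 3.19 without. The other 6 moved none of the 12 values past these limits: joining peaks at 50% of the shorter or up to 500 bp apart, leaving out places within 1 kb of H3K9me3 or of a peak of the other stage, NW_021135154.1, or places at sequence starts. The cause of the moves beyond the settings themselves was not tested. No paired analysis was possible because each mark and stage has 1 list and no result comes from a test. Depth is unknown, so how far weak places depend on it was not tested.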

Other observations

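Some gained and lost places were found in the same neighbourhood. A lost place stood within 10 kb of 90 of the 677 gained places, or 13.3% (10.8–16.1), and a gained place within 10 kb of 73 of the 277 lost places, or 26.4% (21.3–32.0). Within 1 kb the counts were 19 and 16. For comparison with the lost places, 151 of the 1122 places called at pre-diapause alone, or 13.5% (11.5–15.6), had a gained place within 10 kb. The share of gained places near a lost one has no such comparison here. NW_021135154.1, with 81 gained and 33 lost places, was not left out of these counts. On NW_021131485.1, named after its values were seen, all 7 gained places had a pre-diapause peak and 0 places were lost. Their diapause folds had a median of 3.23 and ran from 2.73 to 3.52. Gained places that began within 1 kb of the start of a sequence numbered 8, or 1.18% (0.512–2.32), and 5 of these had a pre-diapause peak.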
